A study of Mus musculus with 960 samples.

Results

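Gata3 encodes a zinc-finger transcription factor, and the 67 accessible windows described here are those that overlap the gene or fall inside 500 kb to either side, out of 50000 windows in the series. They were chosen by position from the deposited list of accessible regions, because an earlier look at the same list had shown many windows at this gene; how many windows the locus holds is therefore a description and was not tested. The cells came from a primary breast tumour of an MMTV-PyMT mouse killed at an age of 3 months, in which the promoter of mouse mammary tumour virus drives the polyoma middle T oncogene in the mammary epithelium. GEO's labels name 960 wells with 1 sorted cell each. On 8 plates of 96 wells the stains were against EpCAM, an adhesion molecule of epithelial cells, and HIF1α, the subunit of hypoxia-inducible factor that oxygen controls. On 2 further plates of 96 wells they were against EpCAM and the leukocyte protein CD45. All cells carried the oncogene, no tumour-free mammary gland belongs to the series, and the number of animals is not in the labels.

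Chromatin accessibility was measured by single-cell ATAC-seq, in which Tn5 transposase inserts adapters into open DNA. The authors called peaks on pooled cells, so the list is 1 sample with no replicate and no comparison between the stains was possible. Whether the wells labelled CD45 entered the pool is not stated outright. More cells were graded for HIF1α in the study than there are wells with that label, so the stain named for the 2 other plates is in doubt. Each window is 500 bp wide, centred on a peak summit, and has a position and a name but no height, q-value or read count. The depth behind a window is unknown. In a pool, a site that is open in a few cells of high coverage and one that is open in many cells cannot be told apart.

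GATA factors bind DNA through 2 zinc fingers and recognise the core GATA. GATA3 directs the luminal fate in the mammary gland, where it maintains the milk-facing cells and acts together with the oestrogen receptor and FOXA1. In lymphocytes it directs T cell development and the type 2 helper programme. Distant enhancers of Gata3 are known in the mouse, among them one for T cells that lies downstream of the gene.

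Windows are named w1 to w67 in order along chromosome 2 of build mm9. The gene lies on the minus strand, so that w1 to w18 are downstream of it, w19 to w47 overlap it and w48 to w67 are upstream. Distances were counted from base 9800227, the start site of the consensus coding transcript (Gata3-001).

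The sequences that follow come from both coding start sites and the called peak with the most windows. Others come from windows outside the gene that were picked for 2 or more matches to the GATA motif. A match was about as frequent in the locus as in the whole list (37.3% and 36.8% of windows). All sequences were read from the mm9 genome on the strand of the Gata3 transcript, 5′ to 3′. The first is the stretch of w30 just in front of the consensus start site (chr2:9800228-9800477), where capitals mark the 1 match of this stretch to the SP/KLF motif GGGCGGG. The second is the end of w47 in front of the outermost start site (chr2:9811662-9811739), where capitals mark the hypoxia-response core GCGTG in its reverse complement.
w30: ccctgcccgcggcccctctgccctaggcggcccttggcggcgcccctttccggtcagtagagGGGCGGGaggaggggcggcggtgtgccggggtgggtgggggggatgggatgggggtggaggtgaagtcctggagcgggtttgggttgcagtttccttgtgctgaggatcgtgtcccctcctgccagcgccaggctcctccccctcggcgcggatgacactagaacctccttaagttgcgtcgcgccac
w47: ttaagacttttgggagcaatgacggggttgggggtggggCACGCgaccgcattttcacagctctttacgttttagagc
The stretch of w30 had a GC content of 70.0%, and that of w47 of 52.6%. The Gata3 promoter of the RefSeq table, which is on another build (GRCm38.p6), matched the mm9 sequence letter for letter at 1 place in the locus (9800178 to 9800477), with its start site at base 9800227. RefSeq and the consensus transcript therefore share that start.

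In the remaining sequences capitals mark the GATA motif, searched on both strands as WGATAR, that is GATA with A or T in front of it and A or G behind it. At least 1 match stood in 36.8% of all 50000 windows, at least 2 in 9.59%, at least 3 in 1.98% and at least 4 in 0.398%, so a single match is common. The stretch of w41 (chr2:9805965-9806084) comes from the called peak with the most windows and holds its 1 match. In that peak 6 windows tied with 1 match, and w41 was taken as the one with its match nearest the summit outside an exon. Of the 6, w36 and w37 overlap and share their match.
w41: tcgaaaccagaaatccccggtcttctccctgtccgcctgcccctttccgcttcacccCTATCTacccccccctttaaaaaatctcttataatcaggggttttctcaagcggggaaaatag
The stretches of w11 (chr2:9727103-9727243), w16 (chr2:9747433-9747570), w18 (chr2:9757077-9757236) and w10 (chr2:9725800-9725919) come from a group of windows downstream of the gene. That of w50 (chr2:9927943-9928074) comes from a group upstream, in an intron of Taf3. They are shown because they hold several matches within a short run, 3 in w11 (which has another elsewhere), 3 in w16 and 2 in each of the others. At most 8 windows were printed, taken by their number of matches and then by their nearness to the consensus start; w52 and w53, also within Taf3, w57, at the start of Taf3, and w21 and w27, in introns of Gata3, hold 2 matches too and are not shown.
w11: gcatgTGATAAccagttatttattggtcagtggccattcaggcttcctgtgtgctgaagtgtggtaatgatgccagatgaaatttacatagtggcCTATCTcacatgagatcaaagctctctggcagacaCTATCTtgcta
w16: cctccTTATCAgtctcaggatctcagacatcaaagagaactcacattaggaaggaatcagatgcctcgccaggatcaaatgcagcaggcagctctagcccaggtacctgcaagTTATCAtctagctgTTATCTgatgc
w18: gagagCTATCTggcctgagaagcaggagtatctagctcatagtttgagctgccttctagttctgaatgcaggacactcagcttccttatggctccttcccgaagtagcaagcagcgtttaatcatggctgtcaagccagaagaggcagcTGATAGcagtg
w10: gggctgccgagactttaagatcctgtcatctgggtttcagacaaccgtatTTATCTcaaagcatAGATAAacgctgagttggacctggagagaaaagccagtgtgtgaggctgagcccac
w50: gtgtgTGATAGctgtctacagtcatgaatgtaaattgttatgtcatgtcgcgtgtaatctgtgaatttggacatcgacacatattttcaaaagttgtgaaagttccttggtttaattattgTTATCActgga
A match is a description of the letters, and whether GATA3 or another factor was bound there was not measured.

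The 67 windows came from 42 called peaks and were spread unevenly. The gene itself, 33 kb long (9778705 to 9811661), held 29 windows from 11 called peaks, or 88 windows per 100 kb. The 500 kb downstream held 18 windows from 15 peaks (3.6 per 100 kb) and the 500 kb upstream 20 windows from 16 peaks (4 per 100 kb). The locus as a whole had 6.49 windows per 100 kb, against 2.21 on chromosome 2 and 1.96 over all chromosomes. The median distance between neighbouring summits was 586.5 bp in the gene and 1043 bp in the locus, against 8296 bp in the whole list. At the edges of the rule, w1 lay 498491 bp from the gene and the next window beyond it 504628 bp, and w67 lay 484614 bp from the gene and the next 828102 bp.

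**Figure D1:**
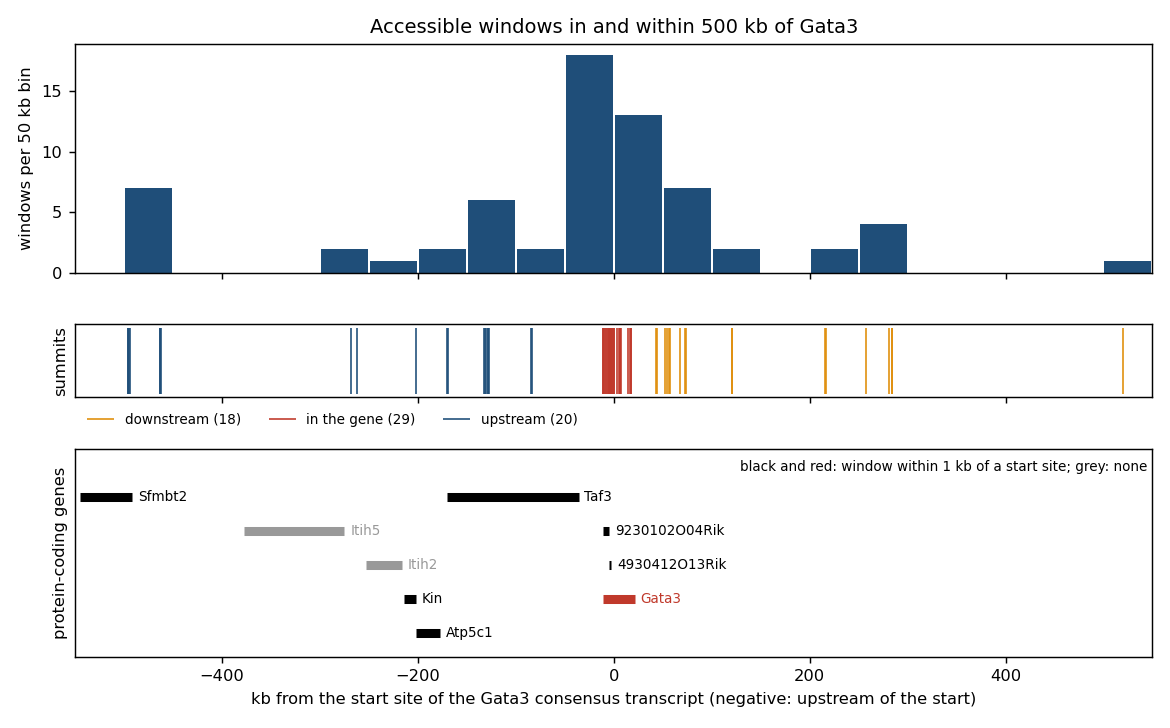
Windows in and within 500 kb of Gata3, plotted against the distance in kb from the consensus start site (negative values are upstream). The top panel counts windows in bins of 50 kb, the middle panel draws each summit as a line (orange downstream, red in the gene, blue upstream) and the bottom panel shows the protein-coding genes, in grey where no window lay within 1 kb of a start site; the 2 bins next to the start hold 18 and 13 windows and no other bin more than 7.

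Outside the gene the windows stood in groups with long stretches without a kept window between them. On the downstream side, where no protein-coding gene is annotated within 500 kb, 9 of the 18 windows (w10 to w18, from 8 called peaks) lay in a stretch of 31.5 kb between 9725768 and 9757241. Their summits were 43.2 kb to 74.2 kb past the consensus start, and the last of them ended 21463 bp from the end of the gene. When windows less than 12.5 kb apart were joined over the whole genome, 0.883% of 21848 clusters held more windows away from start sites than these 9. Beyond them, 94.1 kb between w7 and w8 and 235423 bp between w1 and w2 held no kept window, with 0 and 10 called peaks in them that were not kept. The remaining downstream windows included w4, near the start of the non-coding gene Gm13218, 280679 bp from the consensus start.

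On the upstream side the first 71.3 kb held no window, although 1 peak had been called there and not kept. The nearest window, w48, lay 71425 bp from the gene in an intron of Taf3, which encodes a subunit of the general transcription factor TFIID. A group of 6 windows (w50 to w55, from 4 called peaks) followed between 9927646 and 9932539, in the same gene and with summits 127669 bp to 132063 bp in front of the consensus start. Farther out, 193362 bp between w60 and w61 held no kept window but 7 called peaks that were not kept. Of all 67 windows, 23 (34.3%) had their summit in an intron, 23 (34.3%) were intergenic and 21 (31.3%) lay at a start site, against 28.1%, 31.1% and 37.5% of the whole list.

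Within the gene the windows gathered in front of the consensus start. Gata3 has 2 coding start sites, at 9800227 and, 11.4 kb farther upstream, at 9811661. The 11434 bp between them held 18 of the 29 summits. Downstream of the consensus start, introns 1, 2 and 4 held 1 summit each, intron 3 held 5 and intron 5 held 3, and none of the 6 exons of the consensus transcript held any. Within 1 kb of a coding start site lay 6 windows. Of these, w29, w30 and w31 were at the consensus start, the nearest with its summit 0.113 kb in front of it, and w45, w46 and w47 were at the outermost start, the nearest summit 0.171 kb away. Non-coding transcripts of Gata3 begin at 9811629, 9809411, 9797026 and 9795299, where 3, 2, 1 and 2 windows lay within 1 kb. Those at 9811629 were again w45, w46 and w47.

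A single called peak carried 13 of the windows (w29 to w41). It ran from 9799568 to 9806358, a span of 6791 bp of which the kept windows covered 5637 bp, with a median of 0.479 kb between summits. The authors' names give each summit of a call a letter. The kept letters of this call ran to n, and it was the only one in the list to do so. It had at least 14 summits, of which at least 1, the letter m, was not kept. Summits lettered after the last kept one cannot be seen. No other called peak in the list kept as many windows, and the next largest, 2 calls, kept 11 each. GC content varied within it from 41.2% in w33 to 64.6% in w35. The other calls over the gene were smaller, with 4 windows in intron 3 (w23 to w26), 3 at the outermost start (w45 to w47), 2 in intron 5 (w19 and w20) and 1 in each of the other 7.

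Part of this stretch also belongs to other genes. 4930412O13Rik runs in the opposite direction from Gata3 and 9230102O04Rik in the same direction, and both lie inside the annotated extent of Gata3. The windows w32 to w40 (9) were within 1 kb of a start site of 4930412O13Rik and w39 to w41 (3) of 9230102O04Rik. All 10 distinct windows among them belonged to the 13-window call, and none was within 1 kb of a coding start of Gata3. A window cannot be assigned to one of the overlapping genes.

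Gata3 was set beside all 22342 protein-coding genes to place these counts, as a description, since the gene had been picked for them. Its 29 windows were exceeded at 16 genes and equalled at 4, and the median was 1. Among the 7087 genes of 0.5 to 2 times its length no gene had more, and 1 had as many. Windows covered 12860 bp, or 39.0% of the gene, against a median of 1.02% among the 13487 genes of 10 kb or more. Only Fam110a (49.7%) and Zbtb7b (40.1%) had a larger covered share, and Midn (38.1%) and Kcnn4 (37.4%) came next. The 11 called peaks over it were more than at 99.2% of genes. Its 6 windows at start sites were exceeded at 45 genes and equalled at 65.

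The genes most like Gata3 in the number of windows were longer. Coro2a, which encodes a coronin-type actin-binding protein, had 29 windows over 65.3 kb, and its largest call kept 11. Gab1, an adaptor of receptor tyrosine kinases, had 29 over 116046 bp, and Shroom3, a regulator of apical constriction in epithelia, 29 over 281884 bp. Just below were Fndc3b with 28, and Kazn, which encodes the desmosome-associated kazrin, and Rgs3, a regulator of G-protein signalling, with 27 each. The covered share in these 6 genes was between 4.44% and 19.9%. The likeness is of a single count in 1 pooled list and says nothing of shared control.

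**Figure D2:**
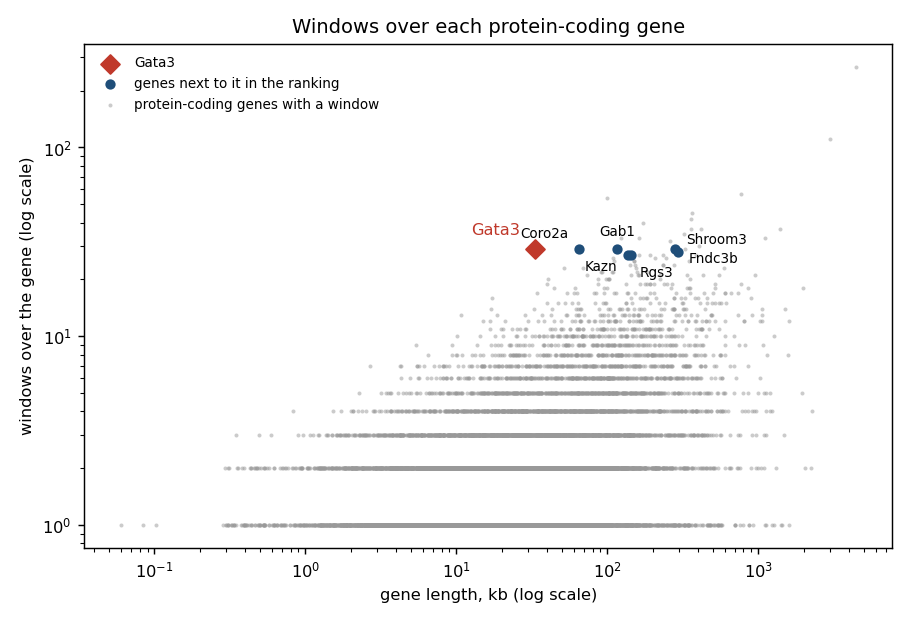
Number of windows over each protein-coding gene that had at least 1, against gene length in kb, both on log scales, with each gene a grey point. Gata3 (red diamond, 33 kb, 29 windows) lies at the upper edge of genes of its length, and the 6 genes next to it in the ranking (blue), with 27 to 29 windows, are between 65266 bp and 295146 bp long.

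The neighbourhood ranked lower than the gene. With 67 windows within 500 kb, Gata3 stood above the median of 32, and 2069 genes had more. Few genes surround it, 8 within 500 kb against a median of 17. Among the 5097 genes with no more neighbours than that, 52 had more than 67 windows and the median was 17. Counting only windows over 1 kb from a start site, the locus held 46, and 863 of all genes had more around them.

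The list also tells how many called peaks were not kept. Called peaks are numbered along each chromosome with no number out of order, so missing numbers are calls that did not enter the list. Between w1 and w67, 85 peaks had been called and 42 (49.4%) were kept. Over the gene 11 of 19 (57.9%) were kept, downstream 15 of 28 (53.6%) and upstream 16 of 34 (47.1%), against 36.8% on chromosome 2 and 35.2% in all (38400 of 109150). These ranges begin and end on kept calls, which raises the shares, and leave 4 calls between the parts uncounted, 1 of them in the first 71.3 kb upstream. With the numbers on either side up to the next kept call, the shares were 42 of 90 (46.7%) in the locus, 11 of 23 (47.8%) over the gene, 15 of 32 (46.9%) downstream and 16 of 39 (41.0%) upstream. Calls counted between the first and last kept ones were also denser, at 57.7 per 100 kb in the gene and 8.23 in the locus, against 4.27 over all chromosomes. Beside other genes the kept share was not extreme, since 5495 of 21373 genes had a higher share within 500 kb and the median was 43.7%. Kept calls of the gene held a mean of 2.64 windows and those of the locus 1.6, against 1.3 in the whole list. Both the gene and the locus means include the call with 13 windows, which raises them.

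The other genes within 500 kb were examined for windows at their own start sites. Of the 8 other protein-coding genes, 6 had a window close to a start site (1 kb or less), against 52.2% of all protein-coding genes. Besides the 2 that overlap Gata3, Taf3 had 2 (w56 and w57). Atp5c1, a subunit of mitochondrial ATP synthase, and Kin, a nuclear DNA- and RNA-binding protein, are transcribed away from each other and shared w58, with its summit 14 bp and 100 bp from their nearest starts. Sfmbt2, a Polycomb-associated gene known for its imprinting in the mouse, had 2 (w64 and w65). Itih2 and Itih5, which encode heavy chains of inter-alpha-trypsin inhibitor, had none, and their nearest summits were 9264 bp and 6218 bp from a start. With so few genes, and 2 of them sharing windows with Gata3, the share was not read against the background.

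Of 5 non-coding genes annotated as lincRNA or processed transcript, 4 had a start-site window, against 31.8% of all lincRNA, processed-transcript and antisense genes. Gm13256, which overlaps the start of Gata3 in the opposite direction, had w29, Gm13218 had w4 and Gm13261, which overlaps the start of Sfmbt2, had w65 to w67. The 2 start-site windows of Gm13219 lie beyond the 500 kb limit and are not among the 67. Gm13262, which begins 16.1 kb in front of Gata3, had none. Gm13256 shared w29 with Gata3, and Gm13261 shared w65 with Sfmbt2. With so few genes, and a background that includes antisense genes, this share too was not read against the background.

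The windows of the locus were examined for base composition and motifs, which the rule did not use. Median GC content was 49.8% in the locus, against 53.2% in the whole list. For windows within 1 kb of a start site it was 56.4%, against 61.6%, and for the others 47.9%, against 50.4%. In all, 10 of the 67 windows (14.9%) were CpG-rich, here meaning a GC content of at least 50% and an observed-to-expected CpG ratio of at least 0.6, against 28.2% of all windows. At start sites 8 of 21 (38.1%) were CpG-rich, against 66.7%. In the gene 4 of 29 were CpG-rich. They were w30 at the consensus start with a ratio of 0.66, w45 and w47 at the outermost start with 0.60 and 0.74, and w38 near the start sites of 4930412O13Rik with 0.80. The highest ratio of the locus, 0.94, was that of w58 between Atp5c1 and Kin.

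Of the locus windows, 25 of 67 (37.3%, Wilson 95% interval 26.7% to 49.3%) held a GATA match, against 36.8% of all windows, so the locus as a whole held them about as often as the list did. The direction differed by distance to a start site. Within 1 kb of one, 8 of 21 windows (38.1%, 20.8% to 59.1%) held a match, against 25.9% of such windows in the list. Of the others, 17 of 46 (37.0%, 24.5% to 51.4%) did, against 43.4%. Both list shares lay within these intervals. The matches were unevenly placed. In the group downstream of the gene (w10 to w18) 6 of 9 windows held 13 matches, or 1.44 per window, and in the group within Taf3 (w50 to w55) 4 of 6 held 7, or 1.17 per window, against 0.597 per window over all windows more than 1 kb from a start site. Over the gene 9 of 29 windows held 11 matches, 0.379 per window, against 0.493 in the whole list, and in w1 to w9 a single match was found. Matches were counted window by window, so the site shared by the overlapping w36 and w37 was counted in both. These groups were set apart after their positions had been seen, and windows of 1 locus are not independent, so no test was made. The richest window was w11, with 4 matches, followed by w16 with 3.

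Other motifs were mostly no more frequent than in the whole list. Of the 14 motifs searched, GATA, AP-1 (TGANTCA) and GRHL (AACCNGTT, the site of the epithelial grainyhead-like factors) stood above the list's share. AP-1 was found in 17.9%, against 14.8%, and GRHL in 5.97%, against 5.05%, both within the Wilson intervals of the locus. The SP/KLF motif was found in 11.9% (interval 6.18% to 21.8%), against 25.8%, and TFAP2 (GCCNNNGGC) in 17.9% (10.6% to 28.7%), against 29.2%. Both are rich in G and C, and the locus had a lower GC content, as given above; the part of base composition in these shares was not tested. The HIF core (CGTG after A or G) was found in 33 of 67 windows (49.3%, interval 37.7% to 60.9%), against 58.7%, which lies within the interval. At start sites it was in 57.1% (36.5% to 75.5%), against 76.1%, and elsewhere in 45.7% (32.2% to 59.8%), against 48.3%. The core contains a CpG, and fewer windows of the locus than of the list were CpG-rich, but the part of this in the shares was not tested. The full NFI palindrome was in none of the 67, where the Wilson interval reaches 5.42% and 3 counts in 67 would be 4.48%, and in 0.114% of the list. Intervals cover counting error only.

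**Figure D3:**
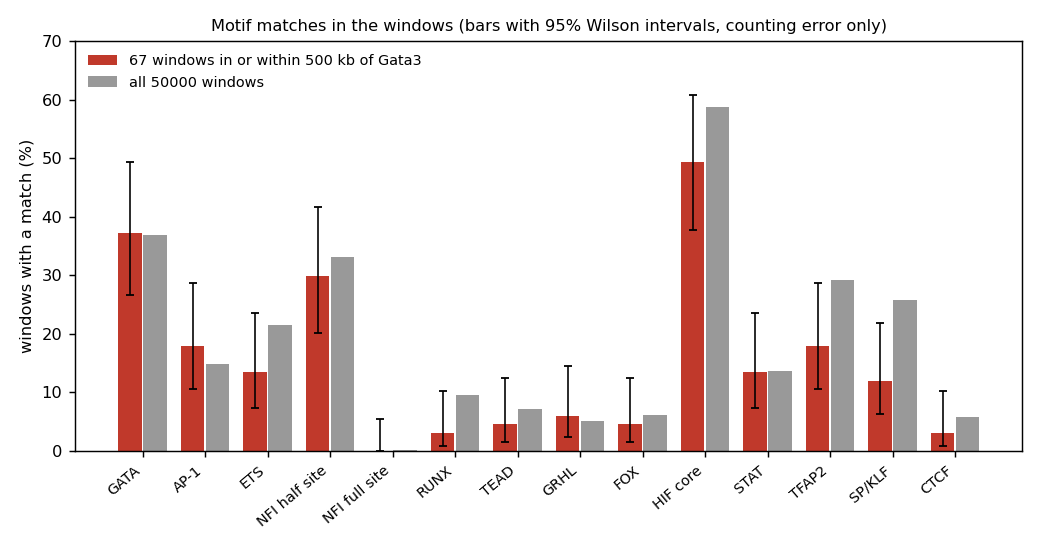
Share of windows in percent that hold each motif, in the 67 windows of the Gata3 locus (red, with 95% Wilson intervals) and in all 50000 windows (grey). The GATA bars are nearly level (37.3% and 36.8%), and the red bars are lower for SP/KLF (11.9% and 25.8%) and TFAP2 (17.9% and 29.2%).

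Among the 6 GATA factor genes Gata3 was the only one with a start-site window. Gata1, Gata2, Gata4, Gata5 and Gata6 had no window over the gene either, and their nearest summits were between 16.2 kb (Gata1) and 68.5 kb (Gata6) from a start. In a list of 12 GATA factors and cofactors, 5 (41.7%, exact 95% interval 15.2% to 72.3%) had a start-site window, against 52.2% of all protein-coding genes. Without Gata3, which had been picked for its windows, the count was 4 of 11 (36.4%, 10.9% to 69.2%). Trps1, an atypical GATA-type repressor, had 4 at its starts and 7 over the gene. Zfpm1, which encodes the cofactor FOG1, had 3 and 5, Gatad2a, a subunit of the NuRD repressor complex, 2 and 4, and Gatad1 2 and 2. Zfpm2, which encodes FOG2, and Gatad2b, another NuRD subunit, had none.

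Genes that work with or under GATA3 in luminal cells nearly all had start-site windows, 18 of 20 (90.0%, 68.3% to 98.8%), against 52.2% of all protein-coding genes, with a median of 4 windows over the gene against 1 for all genes. The gene lists were chosen with earlier results of these data known, so their intervals describe the counts and test nothing. None of the 20 had as many windows over the gene as Gata3. Runx1, a partner factor in mammary epithelium, came nearest with 21, followed by Ehf and Notch1 with 15 and Lmo4 with 11. Ehf and Lmo4 equalled the 6 start-site windows of Gata3. Esr1, the oestrogen receptor, had 3 at its starts and 6 over the gene, and Elf5, a factor of alveolar progenitors, 3 and 8. The luminal keratin genes Krt8 and Krt18 had 4 and 2 at their starts, and the epithelial cadherin Cdh1 had 3. Foxa1, whose product opens chromatin beside GATA3 and the oestrogen receptor, and Areg, an epidermal growth factor receptor ligand, had none, with the nearest summits 45.5 kb and 35.1 kb away.

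Genes of T cells and type 2 lymphocytes, another lineage that depends on Gata3, had a start-site window at 1 of 18 (5.56%, 0.141% to 27.3%), against 52.2% of all protein-coding genes. This list too was chosen with earlier results known, and the difference was not tested. The exception was Tcf7, with 1 window at a start and 4 over the gene. Cd3d, Cd3e, Cd3g, Cd2, Cd4, Cd8a, Zap70, Thy1, Lef1, Il7r and the type 2 cytokine genes Il4, Il5 and Il13 had no window over the gene or at a start. Lck and Il1rl1 each had 1 over the gene only, and Bcl11b had 6 over the gene, with the nearest summit 2763 bp from a start. Ptprc, which encodes CD45, had none, and its nearest summit was 173315 bp away. The list keeps the 50000 windows with the lowest q-values of the pool, so a missing window says only that the site was not kept. How many lymphocytes the pool held, and their part in the windows at Gata3, was not tested. The study describes the cells of its HIF1α experiment as EpCAM-positive, while its methods state that tumour cells were sorted without selecting on a stain.

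**Figure D4:**
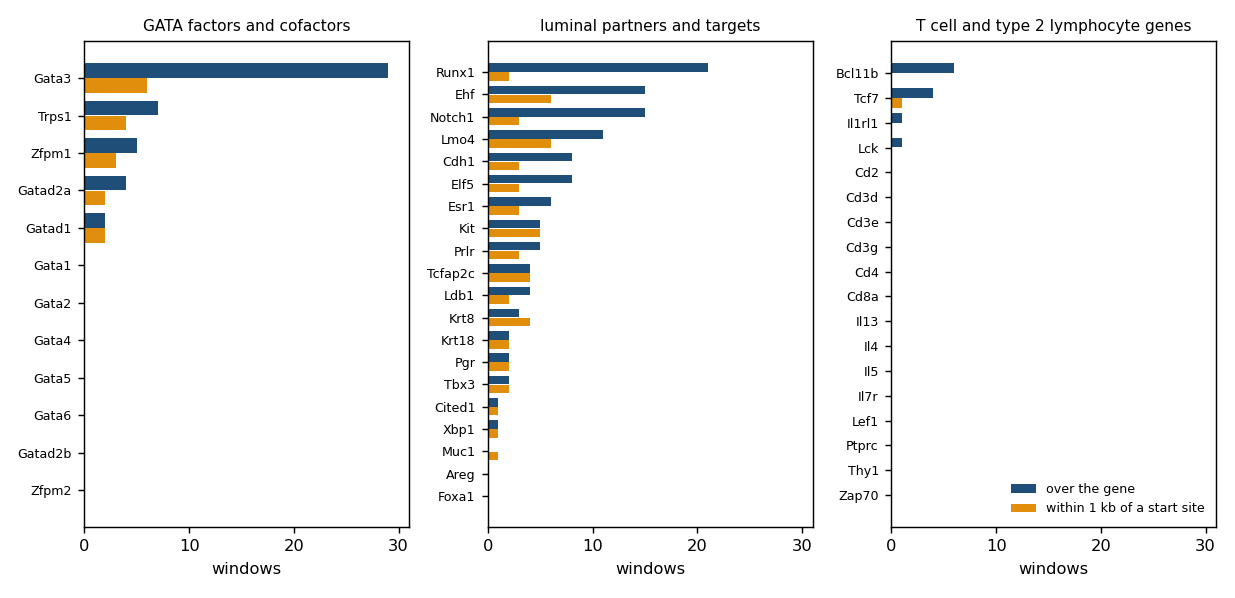
Number of windows over the gene (blue) and within 1 kb of a start site (orange) for each member of the 3 gene lists. Gata3 has 29 and 6, the other GATA factors have 0, 18 of 20 luminal genes have an orange bar and 1 of 18 lymphocyte genes has one.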

How the data were processed

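The series holds 960 wells (8 plates stained for EpCAM and HIF1α and 2 for EpCAM and CD45) and 1 deposited list for all of them, so it was treated as 1 pooled sample. As its methods state, the authors mapped reads to mm9 with Bowtie2 2.1.0, removed duplicates with Picard 1.79, called summits with MACS2 on pooled cells, widened them to 500 bp and kept the windows with the lowest q-values. The MACS2 version is not given in the sources used here. The deposited values are window positions (starts and ends) with a name, without counts or q-values, so depth and precision are unknown.

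Genes and start sites came from GENCODE M1 (22342 protein-coding genes, start sites of coding transcripts), sequence from the same build. A window was at a start site when its nearest edge was within 1 kb. Motifs were searched on both strands. Python 3.11.15, numpy 2.4.6, pandas 2.3.3, scipy 1.17.1 and matplotlib 3.10.9 were used, and counting functions were tested on simulated windows. Shares have 95% binomial intervals (exact for genes, Wilson for motifs).

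The members, gene lists and motifs were chosen with earlier results of these data known, and no test was made. The genes named were Gata3, every protein-coding gene within 500 kb, members of 3 lists (50 entries, 1 matched through another symbol, Tcfap2c for Tfap2c), and the 3 genes next above or equal and 3 next below in windows over the gene, ties by the nearest length; Fam110a, Zbtb7b, Midn and Kcnn4 and the non-coding genes were named after their values were seen.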

Additional observations from a re-analysis of the deposited data

How the results depend on the processing

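Under other settings 18 values of the main results stayed close to the main value and 7 moved. The count of windows at Gata3 starts moved most often. With flanks of 250 kb and 1 Mb the locus held 54 and 73 windows instead of 67, and the kept share of calls was 56.4% and 45.6% instead of 49.4%, and 46.7% with the numbers not kept on either side, added after seeing the data. Merging windows that overlapped by 1 bp left 50 in the locus and 18 over the gene instead of 29, and by 250 bp 66 and 28. Only calls with 2 or more kept windows left 36 in the locus and 22 over the gene. All 29 summits over the gene lay inside it. The 6 windows at Gata3 starts became 4 within 500 bp and 9 within 2 kb, 3 at the outermost start alone and, chosen after seeing the data, 3 at the RefSeq start (its promoter matched by sequence, since the table is on another build and the planned use of its coordinates was not run) and 11 with non-coding starts included. The count of 6 neighbouring genes was 6 within 500 bp and 8 within 10 kb. The GATA share was 14.9% in the central 200 bp, a shorter stretch, against 13.7% in the list. For windows over 1 kb from a start it was 37.0%, against 43.4% of such windows in the list. With the central 200 bp, 5 of 14 motifs stood above the list, and away from start sites 1. With start sites of all transcripts, added after seeing the data, the lymphocyte list had 2 members with a window instead of 1, and the other lists kept 5 and 18. No paired analysis was possible because the list is 1 pooled sample. There are no replicates to leave out, and without counts the depth of a window sets no limit that can be stated.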
